A study of Mus musculus with 12 samples.

Results

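The genes described here are those whose symbol in the deposited expression table is Zfp followed by digits alone, the mouse naming series for zinc finger proteins. The rule took 280 gene IDs with 279 symbols, out of 11921 genes in that table and 38924 in the count files (Zfp319 carries 2 IDs). The RNA came from naive CD4+ T cells sorted from the spleens of C57BL/6 mice of 8 to 12 weeks, which were all expanded for 2 days with antibodies to CD3 and CD28 and rested for 1 day before treatment. Cells were either wild type (WT) or from Goldenticket mice (STINGgt/gt), which carry a STING allele that leaves no working protein in any cell of the body. They were cultured overnight with the STING agonist CMA (10-carboxymethyl-9-acridanone) or with DMSO, its solvent. Each of the 4 groups held 3 libraries, 12 in all. The labels do not say whether a library is 1 animal or a pool, so the p-values measure the spread between these libraries.

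Zinc finger proteins are the largest class of sequence-specific DNA-binding proteins in mammals. In the C2H2 form, a pair of cysteines and a pair of histidines hold a zinc ion and fold a short finger that reads a few bases, and fingers are strung together to read longer sites. Many carry a KRAB box in front of the fingers, which recruits Trim28 and through it the histone methyltransferase Setdb1, HP1 proteins and deacetylases, and such proteins silence endogenous retroviruses and guard imprinted genes. Others share only the name: Zfp36, also called tristetraprolin, has fingers of the CCCH form and binds AU-rich mRNA in the cytoplasm, where it promotes decay.

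In WT cells CMA shifted many of these genes by small amounts, and in STINGgt/gt cells no member passed the test. Of the 280 members, 110 were higher and 64 lower with CMA in WT cells (adjusted p under 0.05), which is 39.3% and 22.9% of them, beside 33.0% higher and 37.4% lower among all 13811 genes tested. Their median log2 fold change was 0.09, against -0.04 for all genes tested. The risers reached further than the fallers: 12 members rose at least 2-fold (4.29%, against 9.32% of all genes tested) and 3 fell as far (1.07%, against 7.68%). Among the 174 members called, 39 risers and 22 fallers moved by less than 1.25-fold. All 280 members passed the filter on low counts, as they had already been kept in the deposited table, so these counts leave out Zfp genes that T cells barely transcribe.

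In STINGgt/gt cells edgeR called 0 of the 280 members, beside 0.398% higher and 0.92% lower among all genes tested, and DESeq2 also called 0. At an unadjusted p under 0.05 there were 17 of the 280 members, 9 of them higher, beside 1790 of all 13811 genes tested. The member nearest to the threshold was Zfp683, with a log2 fold change of -1.23 ± 0.33 (SE) and an adjusted p of 0.0836, at a mean of 19.6 counts a library. When the effects were set against each other in 1 model, the change with CMA was more positive in WT than in STINGgt/gt cells for 82 members and more negative for 53, beside 27.2% and 31.6% of all genes tested. Since these bulk libraries are scaled to their totals, fewer cells of a type and less RNA per cell cannot be told apart.

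**Figure D1:**
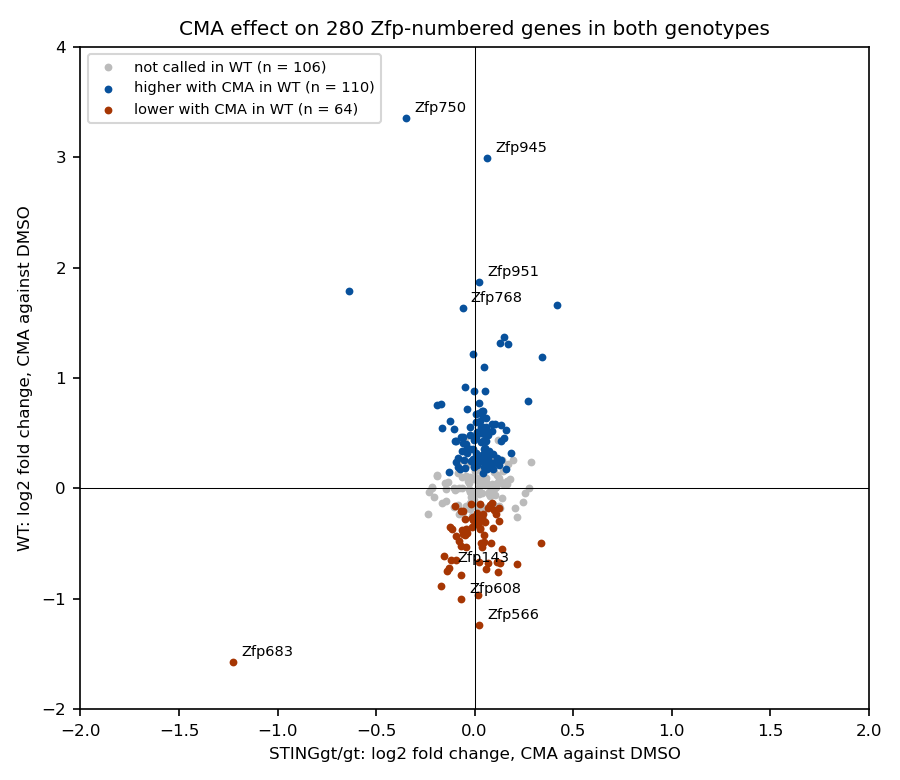
Log2 fold change with CMA against DMSO for each of the 280 members, in STINGgt/gt cells on the horizontal axis and in WT cells on the vertical axis, with blue points for the 110 members higher in WT, brown for the 64 lower and grey for the 106 not called. The WT values run from -1.57 to 3.35, while the STINGgt/gt values stay between -1.23 and 0.42, with Zfp683 as the point furthest to the left.

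Over the 12 libraries, 27414450 to 43784910 reads were assigned to genes, and the members took between 0.676% and 0.776% of them. The markers of CD4+ T cells were present in every library, with summed levels of 3099 to 3395 CPM (counts scaled to the library's total). That sum hides changes in both directions: with CMA in WT, 2 of these 8 were called higher and 4 lower. Tcf7 and Cd4 rose by 1.03 and 0.19 on the log2 scale. Cd3e, Cd3g, Cd3d and Lck fell by 0.66, 0.39, 0.19 and 0.17, and Cd5 and Cd28 were not called. Markers of other cells were low and also moved with the groups. The 6 B cell markers summed to 196 to 204 CPM in WT cells with DMSO and 282 to 302 with CMA, against 95.7 to 98.5 and 94.3 to 95.4 in STINGgt/gt cells, and all 6 were higher in WT than in STINGgt/gt cells with DMSO. The 7 myeloid markers summed to 45.5 to 49.3 and 57.6 to 61.7 CPM in WT cells and to 33.6 to 38.0 CPM in STINGgt/gt cells, and the 6 CD8 and NK markers to 65.8 to 79.2 CPM in WT and 53.2 to 64.0 CPM in STINGgt/gt cells. With CMA in WT, 4 of the 6 B cell markers were called higher and Cd79b and Blk were not called. Of the myeloid markers, Cst3 was called higher (from a mean of 38.6 to 55.7 CPM) and makes up the rise of that sum, while Lyz2, Itgam and Fcgr3 were called lower, by 1.502, 1.71 and 0.94 on the log2 scale. No marker of these lists was at 0 in a group, and their part in the results below was not tested.

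The members were spread over 20 chromosomes but gathered in clusters, with 75 on chromosome 7, 34 on chromosome 17, 26 on chromosome 13 and 20 on chromosome 8. A coding sequence could be read for 277 of them. These held a median of 10 C2H2 fingers, up to 36 in Zfp142, and 8 held none by the pattern used, Zfp36 and Zfp365 among them. A KRAB pattern, which misses divergent boxes, was found in 113 and a SCAN pattern in 9. Per length, the members had a median level of 3.07 CPM per kilobase of exon over the 4 groups, with 2.33 in those with a KRAB pattern and 3.69 in those without. The highest were Zfp106 with 44.3 CPM per kilobase, Zfp207 with 37.1, Zfp281 with 36.7, Zfp598 with 29.9 and Zfp52 with 26.8.

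The promoters of a few members are shown because they belong to the genes that moved most, or because they hold a short motif tied to STING signalling, which acts through interferon regulatory factors and NF-κB. The sequences are from RefSeq (build GRCm38.p6), run 5′ to 3′ on the strand of the gene from 250 bases before to 50 after its start, and 228 member symbols had at least 1 entry, 280 promoters in all. Capitals mark a match on either strand to GAAANNGAAA, the core of an interferon-stimulated response element, or to GGGANNTTCC, a form of the NF-κB site. The first set holds Zfp945 (chr17:22867085-22867384) and Zfp951 (chr5:104859978-104860277), the strongest risers among members with a mean of at least 50 counts, and Zfp566 (chr7:30090461-30090760), the strongest faller among them. None of these windows holds either motif.
Zfp945: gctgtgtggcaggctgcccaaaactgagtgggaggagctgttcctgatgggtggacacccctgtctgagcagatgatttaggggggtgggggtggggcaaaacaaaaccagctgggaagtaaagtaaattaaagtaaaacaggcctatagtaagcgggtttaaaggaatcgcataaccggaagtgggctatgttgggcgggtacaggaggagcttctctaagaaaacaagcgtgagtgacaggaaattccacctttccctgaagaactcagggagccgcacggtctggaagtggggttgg
Zfp951: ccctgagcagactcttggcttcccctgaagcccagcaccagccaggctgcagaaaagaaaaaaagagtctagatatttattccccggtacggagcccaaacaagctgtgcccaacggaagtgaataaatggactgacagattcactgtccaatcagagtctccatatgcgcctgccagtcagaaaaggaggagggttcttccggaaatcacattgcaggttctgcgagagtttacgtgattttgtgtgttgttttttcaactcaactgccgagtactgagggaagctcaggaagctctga
Zfp566: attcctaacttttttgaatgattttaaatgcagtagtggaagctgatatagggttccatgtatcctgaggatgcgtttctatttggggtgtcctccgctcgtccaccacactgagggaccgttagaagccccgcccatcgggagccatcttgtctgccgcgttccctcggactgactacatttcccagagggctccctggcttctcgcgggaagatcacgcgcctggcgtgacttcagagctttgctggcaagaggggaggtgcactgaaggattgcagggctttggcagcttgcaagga

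The second set holds examples of members with a match, picked with their values known to show the forms of the motifs. Zfp213 (chr17:23564177-23564476) has an interferon-type match, Zfp84 (chr7:29768302-29768601) has overlapping NF-κB matches on both strands, and Zfp622 (chr15:25984116-25984415) has the same match at 2 places just after its start.
Zfp213: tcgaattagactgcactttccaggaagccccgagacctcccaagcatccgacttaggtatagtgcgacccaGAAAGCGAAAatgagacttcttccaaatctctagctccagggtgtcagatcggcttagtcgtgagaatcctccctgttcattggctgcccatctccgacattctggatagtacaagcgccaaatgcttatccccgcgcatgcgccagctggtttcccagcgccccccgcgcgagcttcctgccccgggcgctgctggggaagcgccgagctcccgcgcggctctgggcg
Zfp84: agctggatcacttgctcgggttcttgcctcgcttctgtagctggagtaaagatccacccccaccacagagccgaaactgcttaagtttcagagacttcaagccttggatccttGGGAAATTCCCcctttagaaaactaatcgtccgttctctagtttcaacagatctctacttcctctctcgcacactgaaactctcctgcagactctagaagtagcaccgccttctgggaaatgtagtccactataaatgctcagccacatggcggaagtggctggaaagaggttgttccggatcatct
Zfp622: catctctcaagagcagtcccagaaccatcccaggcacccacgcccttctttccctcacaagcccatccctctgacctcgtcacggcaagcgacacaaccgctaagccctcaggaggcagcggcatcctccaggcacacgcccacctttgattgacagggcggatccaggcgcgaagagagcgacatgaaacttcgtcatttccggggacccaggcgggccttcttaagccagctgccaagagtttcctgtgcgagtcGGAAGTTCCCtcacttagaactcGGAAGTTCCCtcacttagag
Zfp213 rose in WT cells with CMA by 0.58 ± 0.07 (log2, SE), Zfp84 by 0.25 ± 0.07 and Zfp622 by 0.27 ± 0.05. Of the members with a match that are not shown, Zfp763 (NF-κB-type) fell, with a log2 fold change of -0.53 ± 0.08, and Zfp420 (interferon-type) had -0.16 ± 0.10 and was not called. Over all 32851 promoters of the table, 3.44% held the interferon-type motif and 1.47% the NF-κB-type motif, and over the 280 promoters of members 1.79% and 2.14% did. Of the 114 promoters of members called higher in WT, 4 held the former and 5 the latter, and of the 63 promoters of members called lower 0 and 1 did. Another motif, CATGNNNNNNCATG, which resembles the p53 site and stands in 0.712% of all promoters, was found in 0 of the 280. A match is a stretch of letters and not a bound site, and the windows of most members that rose hold none.

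Zfp945 showed the largest rise among members with a mean of at least 50 counts. It is a KRAB zinc finger gene with 18 fingers on chromosome 17, 22846697 to 22867134 (GRCm38). Its levels were 2.33, 2.65 and 2.07 CPM in the WT libraries with DMSO and 19.97, 17.03 and 18.8 with CMA, while the STINGgt/gt libraries gave 1.597, 1.505 and 1.93 with DMSO and 1.304, 1.92 and 1.98 with CMA. The WT libraries with CMA stood far above all others, a rise of 7.97-fold (log2 3.0 ± 0.12, adjusted p = 2.42e-12). Its nearest tested neighbours are other members, 306734 bases or more away. Of these, Zfp213 rose by 0.58 and Zfp946 by 0.33 on the log2 scale, while Zfp758 and Zfp40 had 0.05 and -0.01 and were not called.

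Zfp951 (chromosome 5, 104814343 to 104828957) was next. It gave 3.71, 3.39 and 3.78 CPM in WT cells with DMSO and 13.3, 12.7 and 13.8 with CMA, and 3.76, 3.69 and 4.11 and then 3.73, 4.37 and 3.59 in STINGgt/gt cells. The rise in WT was 3.65-fold (log2 1.87 ± 0.09, adjusted p = 1.98e-11), with no overlap between the groups, and the other groups lay within 1 range. The deposited end of this gene lies well short of the RefSeq start shown above, and the neighbours tested on both sides rose: the nearest, Abcg3, by 0.43 on the log2 scale, D930016D06Rik and BC005561 by 0.40 and 0.56, and the interferon-induced Gbp8, beyond Abcg3, by 2.01 on the log2 scale.

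Zfp768 and Zfp629 lie close together on chromosome 7, at 127342797 to 127345314 and at 127607031 to 127615797. The WT libraries gave 3.095, 3.96 and 3.97 CPM of Zfp768 with DMSO and 11.4, 11.4 and 11.7 with CMA, against 1.42, 1.29 and 1.49 and 1.12, 1.36 and 1.53 in STINGgt/gt cells. It rose 3.098-fold with CMA in WT (log2 1.63 ± 0.10, adjusted p = 5.52e-10) and was already 2.65-fold higher in WT than in STINGgt/gt cells with DMSO. Zfp629 gave 10.4, 10.7 and 10.7 CPM and then 27.9, 27.1 and 27.3 in WT cells, and 6.54, 6.02 and 6.57 and then 7.32, 6.74 and 7.198 in STINGgt/gt cells. Its rise in WT was 2.59-fold (log2 1.37 ± 0.06, adjusted p = 3.56e-12). Of their neighbours, Itgal, the integrin chain next to Zfp768, rose by 0.63 on the log2 scale, and all 4 neighbours of Zfp629 tested rose, Rnf40 by 0.79, Gm166 by 2.72 from a mean of 0.428 CPM, Bcl7c by 0.58 and Fbxl19 by 0.71. Sephs2, beyond Itgal, had -0.25 and was called lower. Between Zfp768 and Zfp629, Zfp747 had 0.16 and was not called, and 9130019O22Rik rose by 0.23 (adjusted p = 0.0321).

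The other strong risers among members with a mean of at least 50 counts were Zfp710, Zfp296, Zfp365 and Zfp358. Zfp710 went from 17.5, 18.4 and 17.4 to 42.6, 45.4 and 44.6 CPM (log2 1.32 ± 0.07), while it stayed between 18.5 and 23.2 CPM in STINGgt/gt cells. Zfp296, a partner of reprogramming factors in stem cells, went from 4.698, 5.099 and 4.44 to 11.6, 11.1 and 10.2 CPM (log2 1.22 ± 0.10), and Zfp358 from 7.28, 9.02 and 7.66 to 16.2, 17.3 and 17.9 CPM (log2 1.10 ± 0.09). Of the neighbours of Zfp296 tested, Relb, the NF-κB subunit, rose by 1.24 on the log2 scale, Gemin7 by 0.34 and Ppp1r37 by 0.20. Clasrp, which lies between Zfp296 and Relb, had -0.10 and was not called. All adjusted p-values of these members in WT were at most 5.12e-07.

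Among the members that fell and had a mean of at least 50 counts, Zfp566, a KRAB gene on chromosome 7, 30077337 to 30090527, changed most. It gave 3.06, 3.46 and 2.32 CPM in WT cells with DMSO and 1.53, 1.14 and 0.977 with CMA, and 3.92, 3.34 and 3.02 and then 3.33, 3.302 and 3.87 in STINGgt/gt cells. The groups with and without CMA did not overlap in WT (log2 -1.24 ± 0.19, adjusted p = 2.76e-05). Of its 4 nearest tested neighbours, Zfp382 fell as well (log2 -0.38), Zfp14 rose by 0.76, and Zfp260 and Zfp568 were not called (-0.10 and 0.07).

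Zfp608, which restrains recombination-activating gene expression in thymocytes, fell in WT cells from 20.1, 17.2 and 21.02 to 10.02, 8.76 and 10.3 CPM, with 23.6, 26.7 and 26.6 and then 22.4, 26.2 and 24.5 CPM in STINGgt/gt cells. Its log2 fold change in WT was -1.01 ± 0.09 (adjusted p = 5.79e-08). Its paralog Zfp609 fell with it, from 135, 109.5 and 143 to 80.7, 80.5 and 81.2 CPM (log2 -0.68 ± 0.08). The remaining strong fallers with a mean of at least 50 counts began with Zfp2 (log2 -0.97 ± 0.20), Zfp473 (-0.89 ± 0.07) and Zfp72 (-0.78 ± 0.15). Zfp599 (-0.76 ± 0.10), Zfp28 (-0.75 ± 0.08) and Zfp831 (-0.73 ± 0.10) followed. All of these had adjusted p-values of at most 0.000431. Zfp473, a component of the machinery that cuts histone mRNA ends, is overlapped on the other strand by Vrk3, which rose by 0.72. Zfp599 lies next to the retrovirus repressor Zfp809, which rose by 0.52 ± 0.09, so that neighbours of 1 cluster moved in opposite directions there too.

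**Figure D2:**
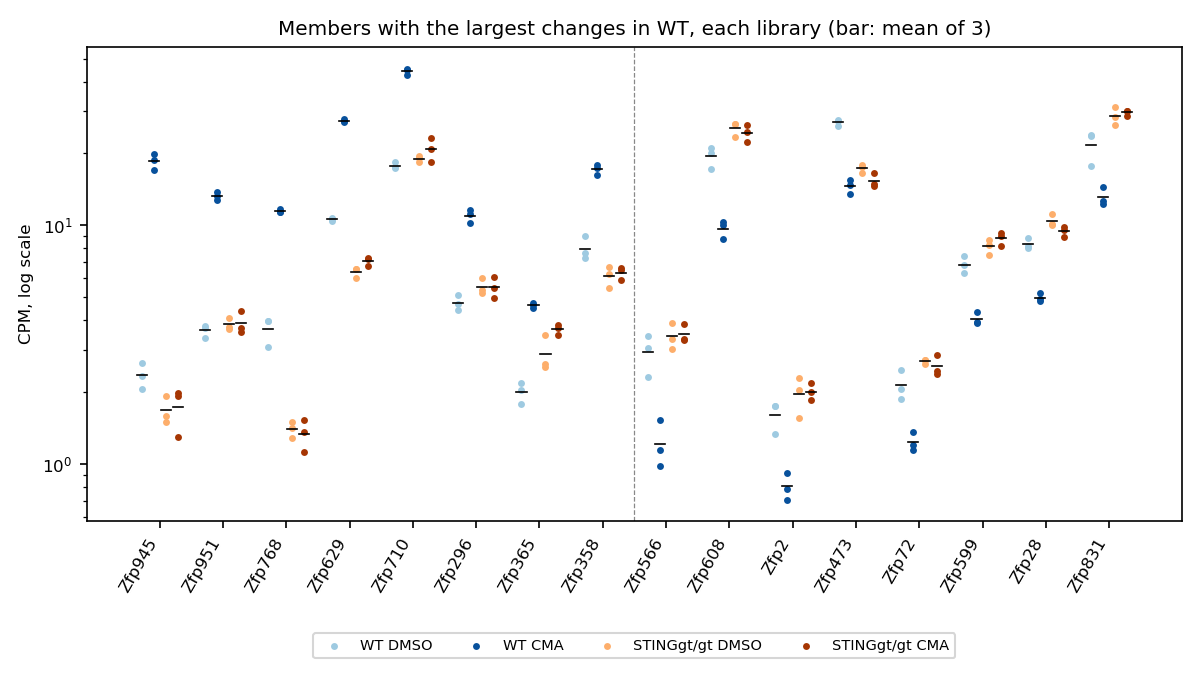
CPM in each of the 12 libraries, on a log axis, for the 8 members with the largest rise and the 8 with the largest fall with CMA in WT cells among those with a mean of at least 50 counts, coloured by group, with a black bar at each mean of 3. The 16 were chosen with WT groups that do not overlap, so the gap between dark blue points (WT with CMA) and light blue ones (WT with DMSO) follows from the choice, while the orange and brown points of the STINGgt/gt groups lie close to each other.

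Some members moved further at levels too low for the mean count of 50 and were picked after their values were seen, apart from Zfp750, which was on a list by role. Zfp750, a regulator of epidermal differentiation, gave 0.182, 0.0671 and 0.268 CPM in WT cells with DMSO and 2.09, 1.88 and 1.702 with CMA, with all STINGgt/gt libraries between 0.124 and 0.301. That is a log2 fold change of 3.35 ± 0.28 at a mean of 21.1 counts a library, and Tbcd, which overlaps it on the other strand, fell by 0.37. Outside WT cells with CMA, Zfp750 lay near the floor. Its passing of the filter on low counts leans on the group where it was high, and it was tested in 19 alternatives. Zfp683, or Hobit, a factor of tissue-resident lymphocytes, gave 1.27, 0.939 and 1.27 CPM in WT cells with DMSO and 0.363, 0.3702 and 0.441 with CMA, and 0.464, 0.684 and 0.373 and then 0.293, 0.136 and 0.234 in STINGgt/gt cells. It fell in WT (log2 -1.57 ± 0.26, adjusted p = 4.27e-05), and the difference between the genotypes' effects was not called (-0.35 ± 0.45, adjusted p = 0.525). Of the 6 CD8 and NK markers, 4 also fell in WT with CMA, Cd8b1 was not called and Eomes rose (log2 0.55, adjusted p = 0.000228), and their part in the fall of Zfp683 was not tested.

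The lists by role begin with RNA, and their counts are to be read beside the 33.0% higher and 37.4% lower of all genes tested. Zfp36 was among the more abundant members and differed more by genotype than by treatment. The WT libraries gave 98.4, 106 and 99.5 CPM with DMSO and 91.3, 97.8 and 85.9 with CMA, and the STINGgt/gt libraries 65.5, 66.7 and 66.8 and 67.8, 65.2 and 63.8. With DMSO it was 1.52-fold higher in WT (log2 0.61 ± 0.05, adjusted p = 5.84e-08), and all WT libraries lay above all STINGgt/gt libraries. The fall with CMA in WT was small (log2 -0.14 ± 0.05, adjusted p = 0.0173) and was lost under 6 of 20 alternatives, with adjusted p up to 0.136.

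Of 20 genes listed as CCCH relatives of Zfp36 or parts of mRNA decay, 10 rose and 4 fell in WT with CMA, which is 50% and 20% of them. Their median log2 fold change was 0.17, against -0.04 for all genes tested, and 6 were not called, among them Zfp36l2 (-0.11) and Cnot2 (-0.03). Zc3hav1, the antiviral protein ZAP, rose from a mean of 332 to 723 CPM (log2 1.12, adjusted p = 6e-12). Zc3h12a, or regnase-1, rose by 0.70, Zfp36l1 by 0.68, and Rc3h1 and Rc3h2, the roquins, by 0.40 and 0.76. The decapping enzyme Dcp2 and the exonuclease Xrn1 rose by 0.91 and 0.81. Of the deadenylase subunits, Cnot10, Cnot11, Cnot7 and Cnot8 fell by 0.45, 0.24, 0.16 and 0.13. Cnot4 rose by 0.14, and Cnot1, Cnot3, Cnot6 and Cnot6l were not called. None of the 20 was called in STINGgt/gt cells.

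All 3 members with a part in ribosome assembly or the nucleolus changed in WT, in both directions. Zfp593, which serves export of the large subunit, fell from 19.9, 19.3 and 18.6 to 13.3, 14.2 and 13.4 CPM (log2 -0.49 ± 0.06), and the nucleolar protein Zfp330 fell from 74.5, 74.7 and 77.8 to 53.7, 51.8 and 55.7 CPM (-0.49 ± 0.05). Zfp622, which acts in the last steps of large subunit maturation, rose from 75.8, 78.9 and 71.1 to 89.7, 95.7 and 86.6 CPM. In STINGgt/gt cells the same genes had log2 fold changes of 0.03, 0.08 and -0.01, none of them called.

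The 5 members tied to the spindle, splicing or RNA changed little, with 1 called in each direction. Zfp106, the most abundant member per length and an RNA-binding protein, fell from 465, 407 and 526 to 349, 335 and 361 CPM (log2 -0.42 ± 0.07, adjusted p = 3.59e-05), and Zfp346, which binds double-stranded RNA, rose by 0.17 ± 0.06, a call that was lost when either of 2 WT libraries was left out. Zfp207, a spindle checkpoint protein, had 0.04 ± 0.04, the splicing-associated Zfp830 0.06 ± 0.07 and Zfp326 -0.17 ± 0.08, and these were not called. Zfp326 was called lower under 4 of 20 alternatives, and its log2 fold change was -0.25 (adjusted p = 0.0083) without WT DMSO replicate 2 and -0.076 (adjusted p = 0.419) without WT DMSO replicate 3. Of the ligases, the SUMO ligase Zfp451 rose by 0.27 ± 0.06 and the ubiquitin ligase Zfp91 had -0.05 ± 0.05. Zfp598, the ubiquitin ligase that senses collided ribosomes, rose by 0.17 ± 0.05.

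Among 7 members that bind promoters through C2H2 fingers, 3 rose and 2 fell in WT cells. Zfp143, which sits at promoters and the anchors of chromatin loops, fell from 63.98, 62.3 and 66.2 to 38.7, 39.4 and 38.9 CPM, while the STINGgt/gt libraries gave 66.7, 66.2 and 64.95 and then 60.6, 58.9 and 61.4. The fall in WT was tight across libraries (log2 -0.72 ± 0.04, adjusted p = 1.51e-10), and in STINGgt/gt cells the value was -0.13 ± 0.04 (adjusted p = 0.143). Zfp335, needed for the upkeep of naive T cells, fell by 0.27 ± 0.05. The rises were in Zfp281, a repressor that binds GC-rich boxes, with 0.50 ± 0.08, in Zfp384 with 0.34 ± 0.05, and in Zfp410, an activator of the remodelling gene Chd4, with 0.24 ± 0.04. Chd4 itself had 0.10 and was not called (adjusted p = 0.111). Zfp148 and Zfp263 had -0.05 ± 0.09 and -0.02 ± 0.05, and neither was called.

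Of 5 members of chromatin complexes, 3 rose and 1 fell in WT with CMA, where 33.0% of all genes tested rose and 37.4% fell. Zfp687, a part of the Z3 complex, went from 29.4, 28.4 and 27.9 to 50.05, 49.1 and 46.9 CPM in WT cells (log2 0.77 ± 0.06, adjusted p = 6.18e-09). Zfp217, a partner of the demethylase LSD1, went from 91.3, 83.02 and 90.5 to 137, 137 and 138 CPM (0.64 ± 0.04), and Zfp644, which brings the methyltransferase G9a to its sites, from 23.3, 19.6 and 26.3 to 35.4, 34.1 and 34.6 CPM (0.58 ± 0.08). Against these, Zfp592, the other Z3 subunit on the list, fell by 0.15 ± 0.04, and Zfp219 had 0.09 ± 0.07 and was not called. Zfp592 was also lower in WT than in STINGgt/gt cells with DMSO (log2 -0.34 ± 0.04).

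Of the 5 members listed as repressors of retroelements or imprinted genes, 2 rose and 1 fell, and Zfp932 and Zfp708 among them lack a match to the KRAB pattern used here. Zfp809, which silences murine leukaemia proviruses, rose from 15, 12.1 and 16.8 to 22.1, 19.4 and 22 CPM (log2 0.52 ± 0.09, adjusted p = 7.65e-05). Zfp445, a guardian of imprints, rose by 0.23 ± 0.09 but its groups overlapped and the call was lost under 6 of 20 alternatives (adjusted p up to 0.214). Zfp932, a repressor of endogenous retroviruses, fell by 0.20 ± 0.08, and this call was lost under 9 of 20 (adjusted p up to 0.109). It shares 37.02% of the 50-base stretches of its transcripts with other genes, so its counts are uncertain. Zfp568, which represses a placental Igf2 promoter, and the retroelement repressor Zfp708 had 0.07 ± 0.08 and -0.17 ± 0.12 and were not called. For Zfp708 that share is 94.9%, and its counts are uncertain too.

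Over all 113 members with a KRAB pattern, 47 rose and 24 fell in WT (median log2 fold change 0.14), and over the 164 without it 61 rose and 40 fell (median 0.06). That is 41.6% higher and 21.2% lower with the pattern and 37.2% and 24.4% without it, beside 33.0% and 37.4% of all genes tested. Of the 12 members past a 2-fold rise, 1 had a KRAB pattern, Zfp945. Of 16 gene IDs of the KRAB co-repressor machinery, 5 rose and 7 fell. Trim28 fell by 0.12 (adjusted p = 0.0136) and Setdb1 had 0.05 and was not called. Hdac2, Mphosph8 of the HUSH complex and the HP1 gene Cbx3 fell by 0.65, 0.57 and 0.46. Morc3 rose from a mean of 77.2 to 152 CPM (log2 0.98), Atf7ip, under 1 of its 2 IDs, by 0.32 and Hdac1 by 0.30.

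**Figure D3:**
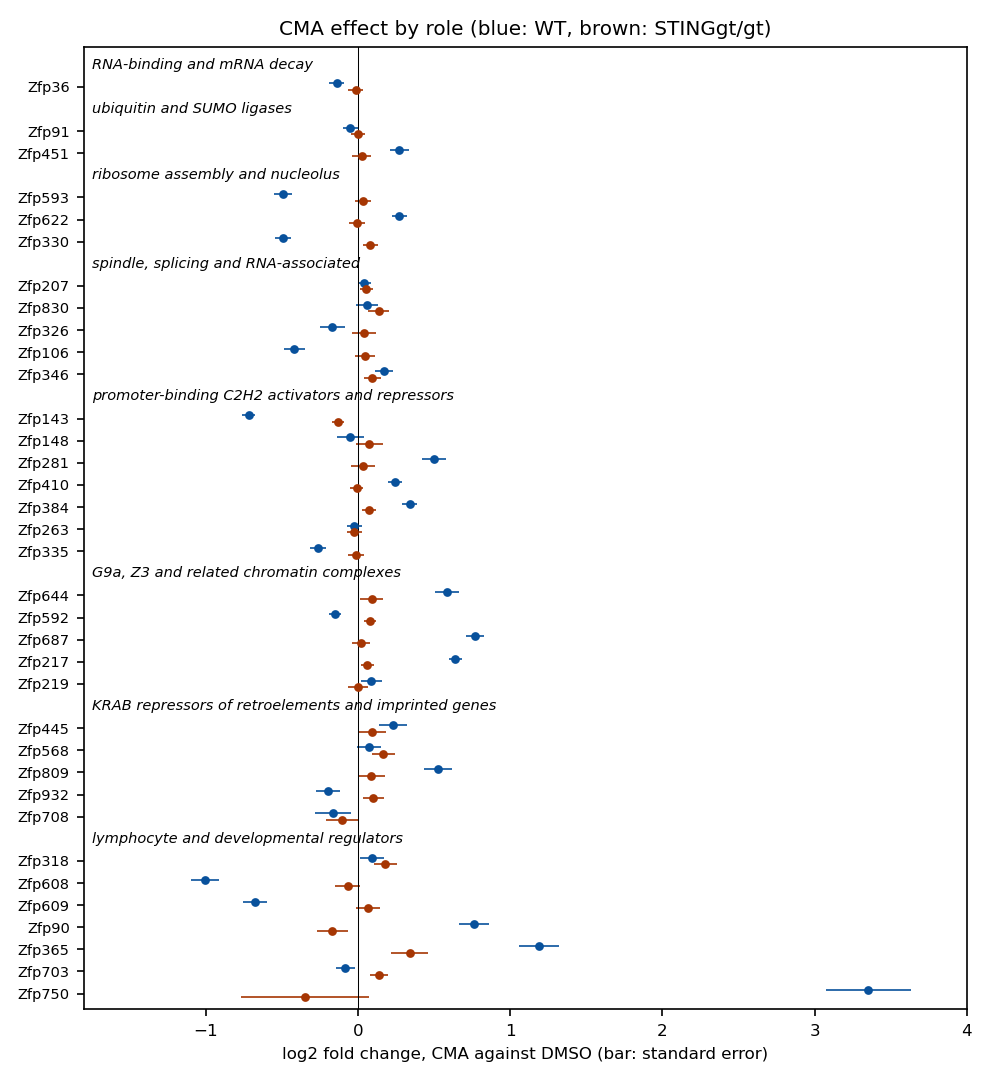
Log2 fold change with CMA against DMSO for the members on each list by role, with blue points for WT and brown points for STINGgt/gt cells and bars for the standard error. The blue points lie on both sides of 0 in most lists, from -1.01 for Zfp608 to 3.35 for Zfp750, and the brown points lie near 0.

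Among the 7 lymphocyte and developmental regulators, 3 rose and 2 fell. Beside Zfp608, Zfp609 and Zfp750, Zfp365, a gene of the DNA damage response, rose from 1.78, 2.05 and 2.19 to 4.71, 4.63 and 4.51 CPM (log2 1.19 ± 0.13), with 3.48, 2.63 and 2.55 and then 3.83, 3.71 and 3.48 in STINGgt/gt cells. Zfp90 rose from 5.61, 5.703 and 4.88 to 9.15, 8.98 and 9.17 CPM (0.76 ± 0.10). Zfp318, which permits IgD expression in B cells, and Zfp703 had 0.09 ± 0.08 and -0.08 ± 0.06 and were not called.

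The members were also counted by features of the genes, to be read against 33.0% higher and 37.4% lower among all genes tested. Divided by mean count into 3 classes of 93 or 94 genes, 28 members rose and 16 fell in the lowest class, 41 and 23 in the middle and 41 and 25 in the highest, while 9 of the 12 rises of 2-fold or more were in the lowest. By number of fingers, 7 rose and 8 fell of 18 with 0 or 1, 19 and 10 of 48 with 2 to 6, 50 and 30 of 123 with 7 to 12, and 32 and 16 of 88 with 13 or more. On chromosome 7, 23 of 75 rose (30.7%) and 20 fell (26.7%), on chromosome 17, 15 of 34 (44.1%) and 4 (11.8%), on chromosome 13, 9 of 26 (34.6%) and 4 (15.4%), and on chromosome 8, 10 of 20 (50%) and 4 (20%), these being the 4 chromosomes with most members. Of the 23 members that share more than 20% of their 50-base stretches with other genes, 6 rose and 4 fell, of the 157 that overlap no other gene, 62 rose and 32 fell, and of the 95 that overlap a gene on the opposite strand, 38 rose and 28 fell. The strand setting of the counting is not given, so the counts of those 95 may hold reads of the other gene. Other zinc finger genes gave 24 higher and 3 lower of 35 in the Zbtb series (median log2 fold change 0.39), 8 and 1 of 11 in the Klf series (0.54), 8 and 2 of 17 named Zscan or Zkscan (0.12), 8 and 6 of 18 named Zc3h (0.07), and 8 and 4 of 17 Zfp names with a letter after the digits (0.18). The differences between these series were not tested.

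**Figure D4:**
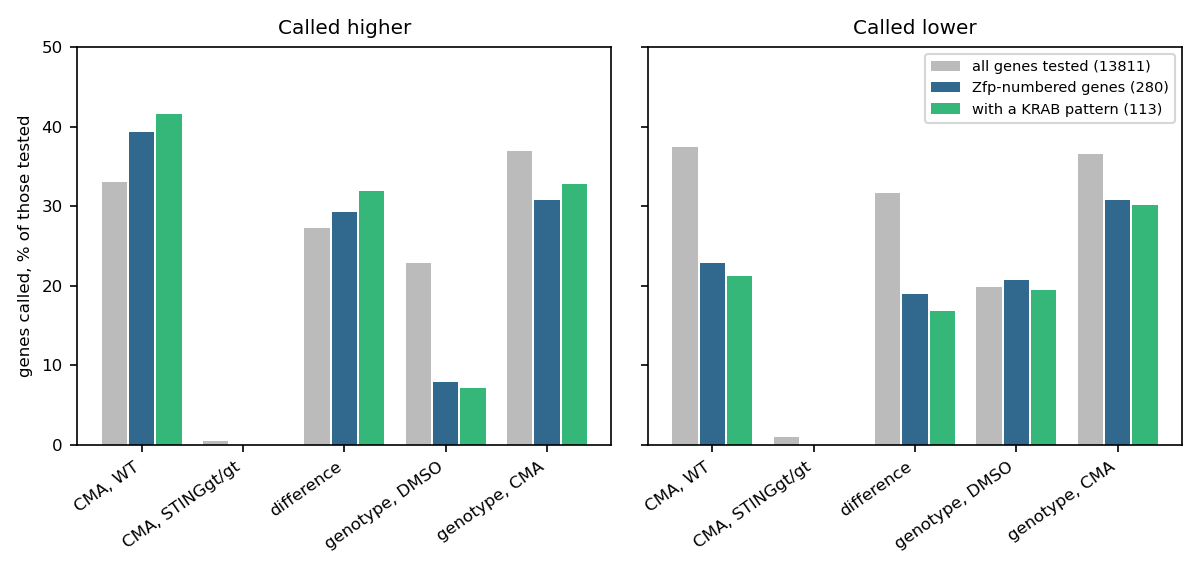
Percent of genes called higher (left) and lower (right) at an adjusted p under 0.05 in the 5 comparisons, for all 13811 genes tested, the 280 members and the 113 with a KRAB pattern. Members were called lower in 22.9% with CMA in WT against 37.4% of all genes tested, and higher in WT with DMSO in 7.86% against 22.9%.

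The genotypes differed before treatment too, and there most called members were lower in WT. With DMSO, 22 members were higher in WT than in STINGgt/gt cells and 58 were lower, which is 7.86% and 20.7%, beside 22.9% and 19.8% of all genes tested. The median log2 difference was -0.06, against -0.002 for all genes tested. With CMA, 86 were higher and 86 lower, beside 37.0% and 36.5% of all genes tested. Each genotype comparison uses the libraries of a CMA comparison above, so the counts are not independent of those. With DMSO, the 6 B cell markers, the 6 myeloid markers tested and 4 of 6 CD8 and NK markers were higher in WT than in STINGgt/gt cells and Eomes was lower, and their part in these differences was not tested.

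With DMSO, the largest differences toward WT among members with a mean of at least 50 counts were, after Zfp768 and Zfp629, in Zfp473, Zfp36 and Zfp516. Zfp473 stood at 27.5, 26.2 and 27.5 CPM in WT cells with DMSO against 16.6, 17.5 and 17.9 in STINGgt/gt cells (log2 0.64 ± 0.06, adjusted p = 6.07e-07), and with CMA the genotypes gave 15.5, 14.7 and 13.6 and 14.9, 16.6 and 14.6 CPM, which overlap. Zfp516, known from brown fat, stood at 11.9, 10.4 and 10.4 against 6.85, 7.55 and 7.62 CPM (log2 0.57 ± 0.08). Mapkapk2, the kinase that restrains Zfp36, was also higher in WT, by 0.61 (adjusted p = 5.26e-09).

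Under the same minimum, the largest differences toward STINGgt/gt cells were in Zfp827, Zfp493, Zfp467, Zfp365 and Zfp275. Zfp827, which brings the NuRD complex to telomeres, stood at 12.8, 11.1 and 9.48 CPM in WT and 21.4, 23.4 and 21.4 in STINGgt/gt cells with DMSO (log2 -1.0 ± 0.08, adjusted p = 6.93e-08). Zfp467, a regulator of fat and bone cell fate, stood at 7.57, 8.92 and 7.41 against 11.96, 13.6 and 14.2 CPM (-0.74 ± 0.08), and Zfp275 at 54.7, 48.2 and 52.7 against 69, 73.2 and 73.95 CPM (-0.47 ± 0.05). These 3 rose in WT with CMA, to 15.96, 15.6 and 14.7 CPM for Zfp827, 11.9, 11.6 and 11.6 for Zfp467 and 77.6, 75.7 and 74.8 for Zfp275. With CMA, Zfp275 no longer differed beyond the threshold between the genotypes (log2 0.10 ± 0.05, adjusted p = 0.0644), whereas Zfp827 did (-0.59 ± 0.08). Zfp493 had -0.74 ± 0.18 with DMSO and -0.80 ± 0.18 with CMA, and Zfp365 -0.52 ± 0.14 and 0.33 ± 0.12, the sign turning with the rise in WT.

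With CMA, the largest differences between the genotypes among members with a mean of at least 50 counts were in genes that had moved in WT. Toward WT these were Zfp945 (log2 3.41 ± 0.13), Zfp768 (3.10 ± 0.12), Zfp629 (1.96 ± 0.06), Zfp951 (1.76 ± 0.09) and Zfp358 (1.44 ± 0.09). Zfp750, with fewer counts, had 3.42 ± 0.27. Toward STINGgt/gt cells they were Zfp566 (-1.51 ± 0.18), Zfp608 (-1.33 ± 0.09), Zfp2 (-1.31 ± 0.19), Zfp831 (-1.18 ± 0.10) and Zfp599 (-1.13 ± 0.09).

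**Figure D5:**
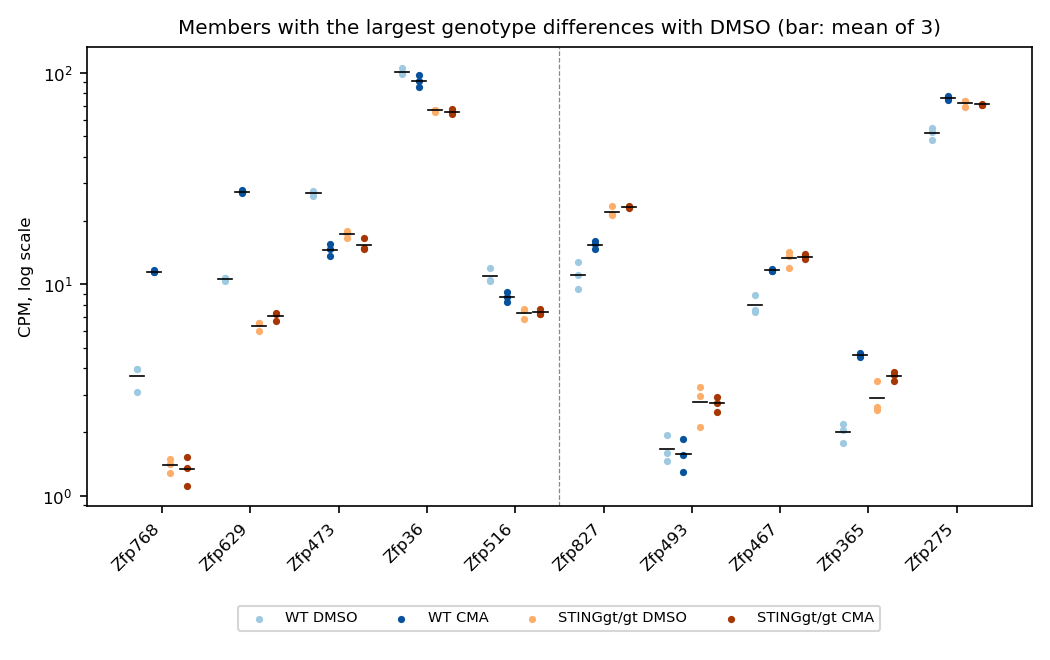
CPM in each of the 12 libraries, on a log axis, for the 5 members most above and the 5 most below STINGgt/gt cells in WT cells with DMSO, among those with a mean of at least 50 counts, coloured by group, with a black bar at each mean of 3. For Zfp36 the WT points lie at 85.9 to 106 CPM and the STINGgt/gt points at 63.8 to 67.8, and for Zfp275 the WT points with DMSO lie below all others.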

How the data were processed

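RNA from 12 samples of splenic CD4+ T cells, with CMA given at 125 µg/ml, was sequenced from stranded mRNA libraries. The submitters' processing notes name cutadapt 1.3, STAR 2.4.0f1, HTSeq 0.6.1 and RSEM 1.2.16 and the build GRCm38, and the strand setting of the counting is not given in the sources used here. The deposited count files hold whole-number counts of reads per gene, made by the authors with HTSeq. The deposited table of log2 values equals log2 of the count plus 0.5, shifted by a constant for each library, for 11921 genes chosen by the authors. It gave the symbols, and its values served only in an alternative. Reads that aligned to several places (27.8% to 30.3% of each library's records) were not counted, which lowers counts of genes with near-identical copies.

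Counts were tested with edgeR 4.0.16 (filterByExpr, TMM scaling, quasi-likelihood fit of all 12 libraries by group, Benjamini-Hochberg adjustment over 13811 genes), with no p adjusted over the members alone. The standard error of a log2 fold change is its size divided by the square root of the F statistic. CPM values use TMM-scaled totals. Members and lists were chosen with earlier results of these data known. The text names members of the lists by role, the 8 largest rises and falls with CMA in WT among members called, with groups that do not overlap and a mean of at least 50 counts, the 5 in each direction by the same conditions for the difference of effects and for each genotype comparison, and the 5 highest levels per kilobase of exon. Protein patterns, exon lengths and shared 50-base stretches were computed from GENCODE M21 models, since no RefSeq protein table was used here. On simulated counts of 13564 genes for CMA in WT, 171 of 200 changed genes were recovered and 15 unchanged genes called. Only these 200 were changed, in both directions alike and each by more than 1.25-fold. The simulation therefore does not bear on smaller changes, or on scaling where most genes move. Alternatives were library-size scaling, DESeq2 1.42.0, limma 3.58.1 on the deposited log2 values, other filters and fits of the compared groups alone. The rest were a block by replicate number or by library name, each library left out, and a wider choice of members.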

Additional observations from a re-analysis of the deposited data

Results flagged for a closer look

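A test of the difference between the genotypes' responses to CMA (the interaction in edgeR) called members in both directions. Of these, 82 changed more in the positive direction in WT and 53 more in the negative. That is 29.3% and 18.9% of the members, beside 27.2% and 31.6% of all genes tested. Among members with a mean of at least 50 counts, the largest differences were in Zfp945 (log2 difference of effects 2.93), Zfp951 (1.85), Zfp768 (1.69), Zfp296 (1.22) and Zfp629 (1.22) on the positive side. Below that minimum, Zfp750 had 3.70, Zfp651 2.43 and Zfp784 1.24. Zfp750 lay near the floor in every group but WT with CMA. On the negative side, the largest with that minimum were Zfp566 (-1.26), Zfp2 (-0.98), Zfp608 (-0.94), Zfp184 (-0.90) and Zfp599 (-0.88).

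A further 79 genes carry Zfp-numbered names in a reference list of symbols but stand outside the deposited expression table, and 17 of them passed the filter on low counts. With CMA in WT cells, 4 of these 17 were called, beside 33.0% higher and 37.4% lower among all genes tested: Zfp941 with a log2 fold change of 0.90, Zfp783 with -0.20, Zfp300 with -1.08 and Zfp987 with -2.82. Apart from Zfp783, at a mean of 8.78 CPM in WT cells with DMSO, these lie at 0.651 CPM or less in that group, and Zfp987 had at most 28 counts in any library.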

How the results depend on the processing

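Counts of members moved by more than 1.5 times only where a 2-fold minimum was set or where the count was near 0. With that minimum, 12 rose and 3 fell with CMA in WT, and 11 and 1 differed in the effect of CMA. In WT against STINGgt/gt cells, 2 were higher and 1 lower with DMSO, and 11 and 7 with CMA. For the difference of effects this is 3.929% and 0.3571% of members, beside 8.696% and 7.299% of all genes tested. For the genotypes with DMSO it is 0.7143% and 0.3571%, beside 5.727% and 1.557% of all genes tested. For the genotypes with CMA it is 3.929% and 2.5%, beside 13.01% and 8.247%. In the STINGgt/gt comparison, the fit of the compared groups alone called Zfp318 higher (1 member) and Zfp683 lower (1 member), the fit with no filter called 1 lower, again Zfp683, and leaving out a library gave 0 to 0 higher and 0 to 1 lower, that 1 being Zfp683 without WT DMSO replicate 2 (log2 fold change -1.23). On the deposited log2 values limma gave a median log2 fold change of members of 0.134 with CMA in WT, 0.135 for the difference of effects and 0.0597 for the genotypes with CMA, where library-size scaling gave -0.03005. The median of all genes moved with it: for the genotypes with CMA the median of all genes tested was -0.0047 as reported, -0.0549 with library-size scaling and 0.0309 with limma, and the median of members lay above it each time.

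Leaving out each library in turn gave 99 to 117 members higher and 52 to 73 lower with CMA in WT, 71 to 88 and 45 to 60 for the difference of effects, 15 to 26 and 45 to 76 for the genotypes with DMSO, and 76 to 99 and 75 to 92 with CMA. Of the 110 risers and 64 fallers in WT, 93 and 47 were called in every such fit. Some single members turned sign, none of them called in the main test. Zfp263 had 0.00604 with DESeq2, 0.0191 under the filter of 10 counts per library, 0.0170 with limma, 0.00802 in the fit of the compared groups alone and, leaving out a library, -0.0546 to 0.0185. Without WT DMSO replicate 2, Zfp830 had -0.00975, Zfp568 -0.0233 and Zfp318 -0.0173, and Zfp148 fell by 0.19 (adjusted p = 0.00437). Zfp148 had 0.00836 with limma and 0.0771 without WT DMSO replicate 3, a fit in which Zfp318 and Zfp568 rose by 0.22 and 0.18. Leaving out a library also ended calls. Zfp346 was no longer called without WT CMA replicate 1 (0.14, adjusted p = 0.082). Nor was Zfp36 without WT CMA replicate 3 (-0.10, adjusted p = 0.11), or Zfp445 without WT DMSO replicate 2 (0.09, adjusted p = 0.214). With all libraries kept, the call of Zfp36 was also lost with DESeq2 (adjusted p = 0.0622) and that of Zfp445 with library-size scaling (adjusted p = 0.0574). The causes were not tested.

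With the replicate number as a block, 117 members rose and 70 fell in WT. The replicate block changed the call of 1 named member, Zfp326, to a fall of 0.16. A second block, by the first digit of the library's name, also called Zfp326 lower (-0.16, adjusted p = 0.0334). It kept 108 of the 110 risers and 62 of the 64 fallers in WT. For the difference of effects it kept 73 of 82 and 44 of 53. In STINGgt/gt cells, replicate 2 has a different digit in each treatment. Under this block those libraries therefore add nothing to the effect of CMA. Zfp326 was called lower as well with library-size scaling (-0.19) and without WT DMSO replicate 2 (-0.25). Libraries with 1 number in both treatments deviated together with correlations of 0.00195 to 0.132. The study does not state pairing, so the main test took no pairs. Such weak correlations cannot exclude pairing, and by name replicate 2 of STINGgt/gt cells is not a pair. Depth limits the members with few counts, of which 14 had a mean under 50.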
